A study of Mus musculus with 24 samples.

Results

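A set of 10 genes of the antioxidant defence of the mouse retinal pigment epithelium (RPE), the pigmented cell layer behind the photoreceptors, was followed through 24 RNA libraries: the regulator Nfe2l2 and the genes Hmox1, Nqo1, Gclc, Gclm, Txnrd1, Sod1, Sod2, Cat and Gpx1. They were taken by name from a list of 10 symbols, and all 10 were found among the 31053 gene identifiers counted in each library. Isolated RPE cells came from 2 genotypes at 3 ages, called P11 and P29 (postnatal days 11 and 29) and 3M (an age of 3 months), and each genotype had 4 libraries per age. All animals were positive for a Cre recombinase under the Dct promoter, which is active in pigment cells. Those called control carried the Cre, and those called mutant carried it together with floxed Ift20, a gene for a cilium assembly factor. The number of floxed alleles is not stated. The genetic background was mixed, sex was not recorded and no treatment was given. Libraries are labelled as biological replicates without saying whether each is 1 animal or a pool, so p-values measure the spread between these libraries. RNA was read with a kit that yields tags near the 3' end of polyadenylated transcripts. Levels are given in CPM, the count of a gene relative to the gene counts of its library, scaled between libraries with TMM factors.

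Nfe2l2 encodes NRF2, a transcription factor that KEAP1 normally hands over for degradation. Oxidants and electrophiles stop this hand-over, and NRF2 then pairs with small MAF proteins on antioxidant response elements near its target genes. Because its main control is on protein stability, the Nfe2l2 transcript is no measure of NRF2 activity. The RPE works under strong light, high oxygen and a daily load of lipid-rich outer segments, and is known for high antioxidant capacity. Hmox1 (heme oxygenase), Nqo1 (a quinone reductase), Gclc and Gclm (the catalytic and modifier subunits of the first enzyme of glutathione synthesis) and Txnrd1 (cytosolic thioredoxin reductase) are textbook NRF2 targets. Sod1 and Sod2 encode the cytosolic and mitochondrial superoxide dismutases. Cat (catalase) and Gpx1 (a glutathione peroxidase) encode enzymes that remove hydrogen peroxide.

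In the GRCm38 annotation, each of these genes had 1 identifier. Nfe2l2 lies on the minus strand at chr2:75675513-75704641 and Cat on the minus strand at chr2:103453849-103485160. Nqo1 lies on the minus strand at chr8:107388225-107403206. The others lie on plus strands, with Hmox1 at chr8:75093621-75100589, Gclc at chr9:77754535-77794485, Gpx1 at chr9:108338903-108340343, Gclm at chr3:122245557-122270732, Txnrd1 at chr10:82833951-82897712, Sod1 at chr16:90220754-90226329 and Sod2 at chr17:13006846-13040063. No exon of another annotated gene fell within the last 500 bases of the annotated span of any of the 10. Tags can also land at transcript ends inside that span, and overlap there was not checked. The last 300 bases of the Sod1 transcript shared 228 bases at 97.8% identity with the pseudogene Gm8566. Stretches of 186 to 192 bases at the Sod2 end were at least 95% identical to 6 other genes, so the Sod1 and Sod2 counts are uncertain to the extent that reads could be placed in either copy.

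The promoters of these genes were searched for the core of the antioxidant response element, TGACNNNGC, on both strands. RefSeq promoter windows of 300 bases (250 before the transcript start and 50 after it, GRCm38.p6) matched 8 of the 10 genes, all but Hmox1 and Gclc. The core stood in 4 of their 10 windows, against 12.4% of the 32851 windows in the table. The 4 windows with a match are printed with the match in capitals, and the Cat window is printed as that of the gene with the largest rise with age. Positions count from the transcript start. The Nfe2l2 window, chr2:75704614-75704913 on the minus strand, holds the core from -240 to -232. The Gclm window, chr3:122245307-122245606, holds it on the opposite strand from -134 to -126. Of the 3 Txnrd1 windows, the one at chr10:82858956-82859255 holds it on the opposite strand from -92 to -84, and the Sod1 window, chr16:90220512-90220811, on the opposite strand from -56 to -48. These letters were not found in the Cat window, chr2:103485104-103485403 on the minus strand, or in those of Nqo1, Sod2 and Gpx1. Sequence outside the windows was not searched, so an absence holds for the 300 bases only. A match describes the letters and is no measure of binding. Nfe2l2, Gclm and Sod1 had a match and were called higher from P11 to P29 in both genotypes. Cat, Nqo1 and Sod2 were called so too and had none, and Txnrd1, with a match, was called in mutants only. Neither the share of matches among these genes, chosen by name, nor its relation to age was tested.
Nfe2l2: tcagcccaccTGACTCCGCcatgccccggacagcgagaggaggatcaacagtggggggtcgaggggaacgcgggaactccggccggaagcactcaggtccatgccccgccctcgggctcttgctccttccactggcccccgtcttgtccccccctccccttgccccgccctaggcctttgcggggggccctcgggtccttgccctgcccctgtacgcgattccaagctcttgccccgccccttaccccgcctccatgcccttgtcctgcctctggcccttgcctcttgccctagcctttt
Gclm: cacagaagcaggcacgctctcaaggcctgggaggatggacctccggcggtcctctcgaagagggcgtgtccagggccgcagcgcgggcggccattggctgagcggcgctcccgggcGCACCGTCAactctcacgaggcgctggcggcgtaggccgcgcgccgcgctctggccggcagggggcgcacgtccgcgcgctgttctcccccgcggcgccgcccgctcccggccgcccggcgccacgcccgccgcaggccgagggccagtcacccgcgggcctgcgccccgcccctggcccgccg
Txnrd1: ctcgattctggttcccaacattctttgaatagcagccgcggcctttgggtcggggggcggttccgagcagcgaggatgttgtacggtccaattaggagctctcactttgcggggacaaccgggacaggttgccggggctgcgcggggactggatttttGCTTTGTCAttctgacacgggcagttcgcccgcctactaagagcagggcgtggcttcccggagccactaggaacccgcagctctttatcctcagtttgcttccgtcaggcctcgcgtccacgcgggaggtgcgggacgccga
Sod1: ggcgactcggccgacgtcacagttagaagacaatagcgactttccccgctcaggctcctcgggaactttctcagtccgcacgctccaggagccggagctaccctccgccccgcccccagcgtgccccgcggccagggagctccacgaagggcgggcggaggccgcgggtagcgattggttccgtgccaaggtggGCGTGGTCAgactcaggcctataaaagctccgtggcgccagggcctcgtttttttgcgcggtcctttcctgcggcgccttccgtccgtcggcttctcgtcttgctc
Cat: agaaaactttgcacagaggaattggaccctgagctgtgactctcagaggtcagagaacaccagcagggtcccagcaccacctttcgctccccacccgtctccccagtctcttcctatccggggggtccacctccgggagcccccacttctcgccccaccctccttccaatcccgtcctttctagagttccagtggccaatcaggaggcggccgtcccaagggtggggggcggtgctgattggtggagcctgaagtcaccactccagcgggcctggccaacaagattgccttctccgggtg

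Libraries held 1513440 to 2889946 gene counts, so that 3 counts, taken as the floor of detection, were worth 1.04 to 1.98 CPM. All 10 genes passed the low-count filter that left 12303 genes for testing. The transcript of Ift20, the targeted gene, ran from 60.7 to 150 CPM in P11 controls and from 76.7 to 94.2 CPM in P11 mutants. It was called lower in mutants at P29 (log2 fold change -0.60, SE 0.15, adjusted p = 0.0112 in edgeR) and not at P11 (-0.27, adjusted p = 0.353) or 3M (-0.26, adjusted p = 0.547). The labels do not say which exons are floxed, and a 3' tag may lie outside them. All 13 RPE markers had counts in every group, and their summed level was 20966 to 23405 CPM at P11, 43844 to 51643 at P29 and 67518 to 70958 at 3M. Other cells were present too: 14 rod markers summed to between 4254 and 17907 CPM and the 8 erythrocyte genes with an identifier to between 2081 and 33396 CPM. In bulk libraries such as these, fewer cells of a type and less RNA per cell cannot be told apart.

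**Figure D1:**
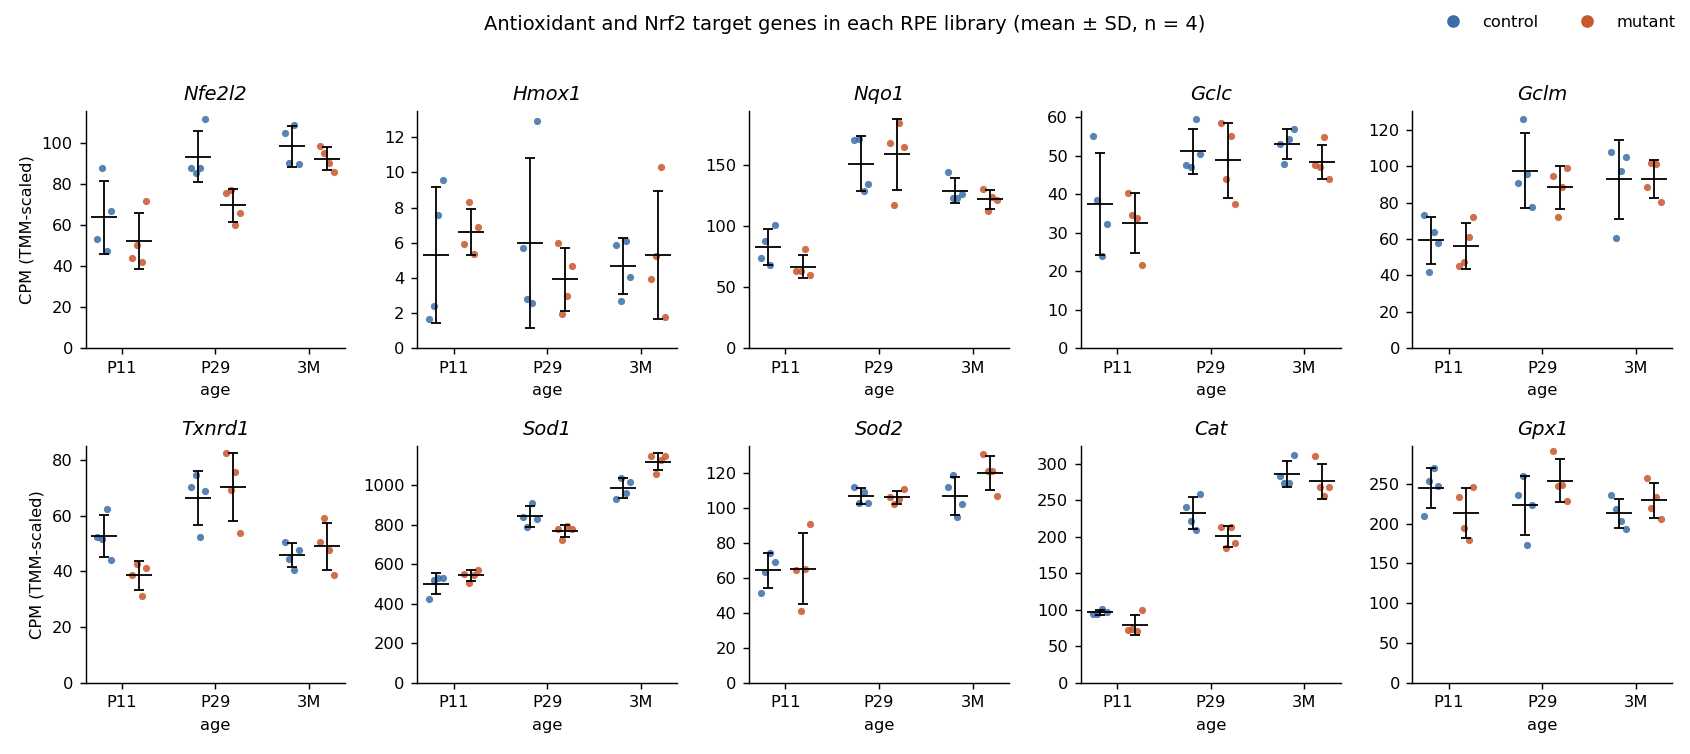
Level of each gene in each library (CPM, linear axis from 0) against age, with controls in blue and mutants in orange. Horizontal lines are means and bars are SD over 4 libraries. Cat and Sod1 are higher at each later age in both genotypes, and control and mutant points overlap in most panels.

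The first comparison asked whether transcripts of antioxidant genes differ between the genotypes at each age. At P11 none of the 10 genes was called between mutants and controls by edgeR at an adjusted p under 0.05, where 6.93% of the 12303 tested genes were called. DESeq2 called none either. By unadjusted p, 3 of the 10 (Txnrd1, Cat and Nqo1, all lower in mutants) were under 0.05 in edgeR, beside 18.6% of all genes, and 3 genes were in DESeq2. The median log2 difference of the 10 was -0.22, against 0.00 over all tested genes, with 7 lower and 3 higher.

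Txnrd1 stood at 52.5, 51.7, 62.6 and 44.1 CPM in the P11 controls and at 38.8, 42.7, 31.3 and 41.4 CPM in the P11 mutants. Every mutant library was below every control library, and Txnrd1 was the single one of the 10 genes without overlap at P11, beside 10.3% of tested genes. The difference was -0.45 on the log2 scale (SE 0.19, 95% interval -0.82 to -0.07, adjusted p = 0.156), so it did not pass the test. Catalase transcripts were at 93.9, 93.8, 101 and 96.7 CPM in P11 controls. Of the P11 mutants, 3 were below these, at 71.7, 73.3 and 70.6 CPM, and replicate 4 was among the controls at 99.1 CPM. The Cat difference was -0.29 (SE 0.11, adjusted p = 0.128), and without mutant replicate 4 it was -0.42 and passed the test (adjusted p = 0.0199). That fit was the single one of 8 leaving out a P11 library in which any of the 10 genes was called.

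Nqo1 averaged 82.9 ± 14.9 CPM in P11 controls and 66.8 ± 9.49 CPM in P11 mutants (SD, n = 4). Its libraries overlapped, since mutant replicate 3 at 80.8 CPM lay above 2 of the controls. The difference was -0.31 (SE 0.14, adjusted p = 0.202). The glutathione synthesis genes differed less, by -0.24 for Gclc (interval -0.66 to 0.19) and -0.08 for Gclm (-0.42 to 0.26). Gpx1 was at 245 ± 25.2 CPM in controls and 213 ± 31.2 CPM in mutants, a difference of -0.20 (interval -0.41 to 0.01). The dismutases were on the other side of 0, at 0.12 for Sod1 (interval -0.02 to 0.26) and 0.03 for Sod2 (-0.27 to 0.34). Hmox1 rested on 4 to 19 counts per P11 library, and its interval of -0.96 to 1.64 was the widest of the 10.

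At P29 again none of the 10 genes was called for genotype, where 2.84% of tested genes were, and DESeq2 called none. Unadjusted p-values were under 0.05 for Nfe2l2 and Cat in edgeR, and for 2 genes in DESeq2, beside 11.4% of all genes in edgeR. Nfe2l2 itself stood at 87.8, 85.7, 88.1 and 112 CPM in P29 controls and at 75.6, 77.2, 60.2 and 65.8 CPM in P29 mutants. The mutants lay below all controls, and no other of the 10 genes was free of overlap at P29, beside 7.75% of tested genes. The log2 difference was -0.42 (SE 0.16, interval -0.73 to -0.10, adjusted p = 0.185). Cat was at 232 ± 21.8 CPM in controls and 200 ± 15.2 CPM in mutants, with overlapping libraries and a difference of -0.21 (SE 0.10, adjusted p = 0.407). None of the enzymes known as NRF2 targets had an interval clear of 0 at this age: Nqo1 differed by 0.07 (-0.19 to 0.32), Txnrd1 by 0.08 (-0.27 to 0.43), Gclm by -0.14 (-0.46 to 0.18), Gclc by -0.07 (-0.47 to 0.33) and Hmox1 by -0.59 (-1.90 to 0.72).

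At 3M no gene of the 10 was called in edgeR or DESeq2, beside 2.61% of tested genes in edgeR. By unadjusted p 1 gene was under 0.05 in DESeq2 and 1 in edgeR, beside 11.3% of all genes in edgeR. In edgeR it was Sod1. Its levels were 929, 1036, 961 and 1016 CPM in controls and 1149, 1057, 1126 and 1146 CPM in mutants. All mutants were above all controls, and Sod1 was the single one of the 10 without overlap at 3M, beside 8.07% of tested genes. The difference was 0.18 (SE 0.07, interval 0.05 to 0.32, adjusted p = 0.175), a 13.6% higher level in the fit. Intervals of the other 9 genes all took in 0. The narrowest was that of Cat, at -0.25 to 0.15, and Sod2 was at -0.11 to 0.45.

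**Figure D2:**
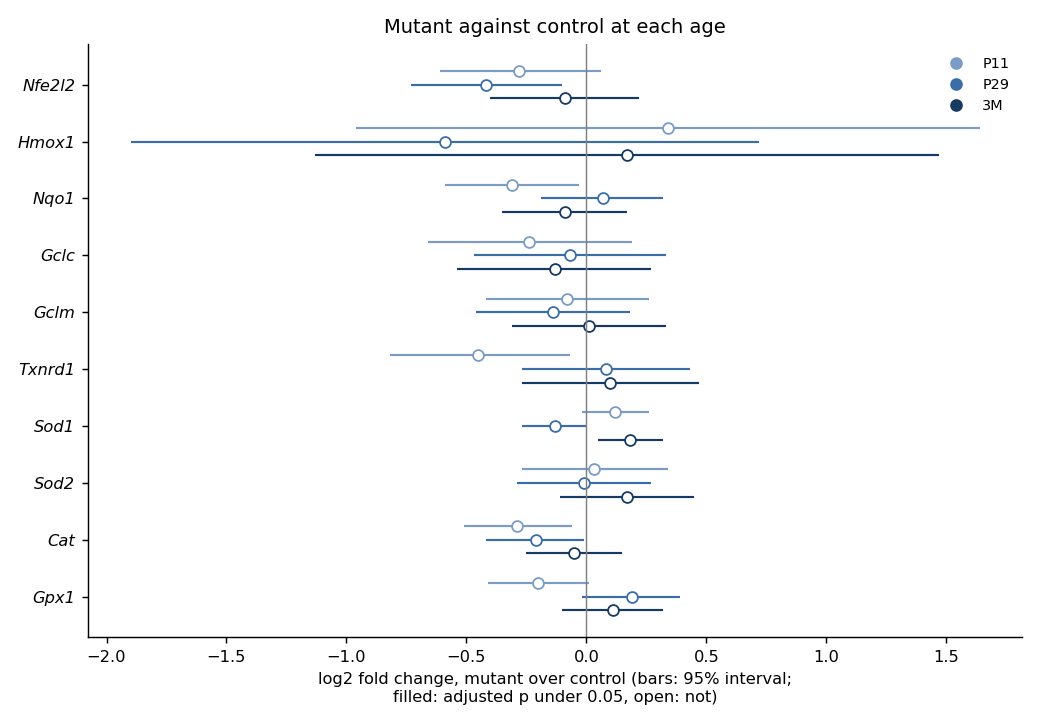
Log2 fold change of mutants over controls for each gene at P11, P29 and 3M (light to dark), with 95% intervals from the edgeR fit. All symbols are open because no gene had an adjusted p under 0.05, and the Hmox1 intervals are the widest.

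Marker genes of other cells moved with genotype in the same libraries. At P11 the 12 endothelial markers summed to 508 to 538 CPM in controls and 232 to 269 CPM in mutants, rod markers to 13637 to 14920 and 16965 to 17607 CPM, and RPE markers to 22371 to 23405 and 20966 to 21961 CPM. Of 12 tested RPE markers, 8 were called lower in P11 mutants, beside 3.67% of all tested genes called lower at P11. The 6 myelin markers summed to 347 to 473 CPM in P11 controls and 41.8 to 65.0 CPM in P11 mutants, with all 5 tested called lower and Mog at 0 in the mutants. The 6 pericyte markers summed to 240 to 291 and 111 to 160 CPM, with 3 called lower. Of 8 choroidal melanocyte markers, 4 were called lower in P11 mutants. Stromal fibroblast markers summed to 3007 to 3345 CPM in P11 controls and 2483 to 2734 CPM in P11 mutants. Lens markers summed to 145 to 180 and 66.3 to 87.1 CPM. Microglia and macrophage markers, none called, summed to 428 to 474 and 376 to 412 CPM. Inner retinal neuron sums were higher in P11 mutants, at 850 to 886 CPM in controls and 1067 to 1107 CPM in mutants. The share of mitochondrial transcripts was 7.3% to 8.79% in P11 controls and 10.2% to 11.1% in P11 mutants. At P29 the 14 lens markers summed to 40.7 to 67.4 CPM in controls and 1245 to 1309 CPM in mutants, rod markers to 11327 to 12094 and 16594 to 17907 CPM, and RPE markers to 50679 to 51643 and 43844 to 46339 CPM. Of 12 tested RPE markers, 4 were called lower and 2 higher in P29 mutants. At 3M rod markers summed to 4254 to 4630 CPM in controls and 7664 to 8134 CPM in mutants. Cone markers summed to 69.4 to 100 and 158 to 170 CPM, and endothelial markers to 18.6 to 37.9 and 41.0 to 48.5 CPM. Erythrocyte markers summed to 2081 to 2210 and 2498 to 2665 CPM, and choroidal melanocyte markers to 2944 to 3233 and 3680 to 4062 CPM. Sums of glia, lens and microglia and macrophage markers were also higher in every 3M mutant than in any 3M control. However, none of the markers in these lists was called for genotype at 3M. RPE sums overlapped at that age. No marker of the endothelial, rod or lens lists was at 0 in every library of a group at P11 or P29. The part of these cells in the antioxidant values was not tested.

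**Figure D3:**
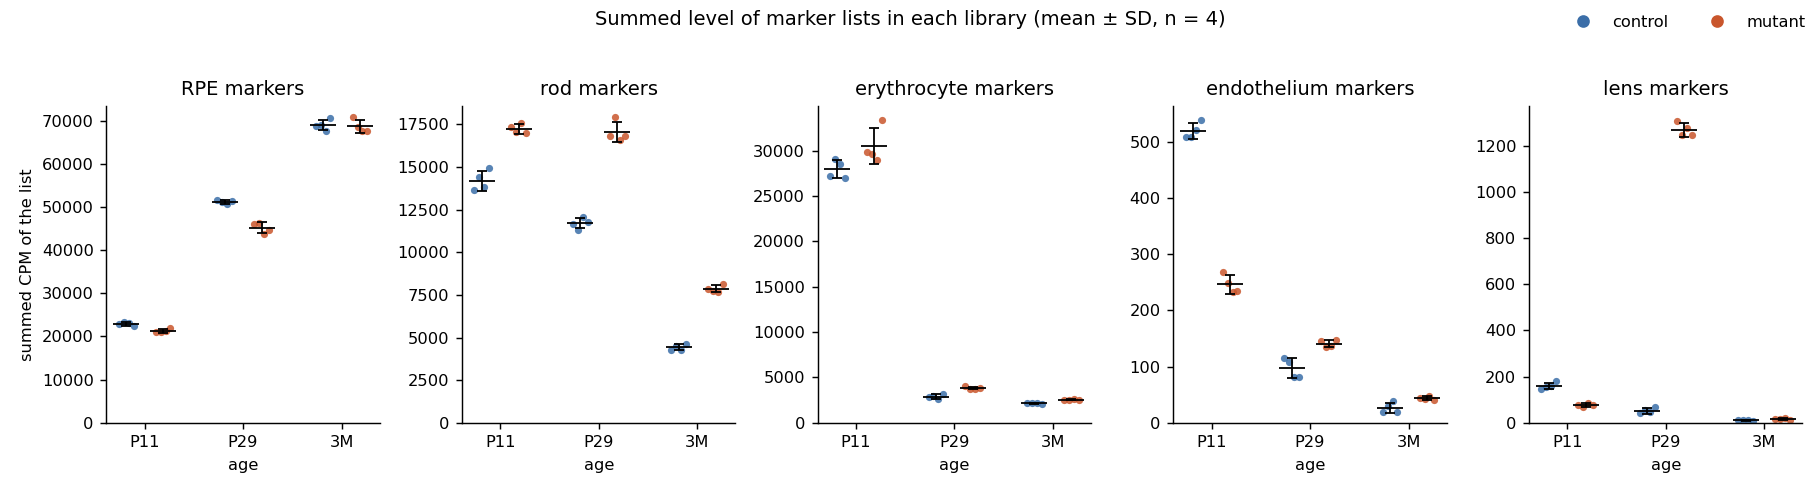
Summed CPM of RPE, rod, erythrocyte, endothelial and lens markers in each library against age, controls in blue and mutants in orange, with mean and SD over 4 libraries. RPE markers are higher at each later age, erythrocyte markers are highest at P11, and lens markers stand out in P29 mutants.

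Whether the genotype effect itself changed with age was tested as an interaction. Between P11 and P29 it was called for 0 of the 10 genes, beside 2.63% of tested genes. Unadjusted p was under 0.05 for Gpx1, Sod1 and Txnrd1 in edgeR, beside 13.6% of all genes, and for 3 genes in DESeq2. Gpx1 moved from -0.20 at P11 to 0.19 at P29, an interaction of 0.38 (SE 0.15, adjusted p = 0.184). Txnrd1 moved from -0.45 to 0.08, an interaction of 0.53 (SE 0.26, adjusted p = 0.349). Between P29 and 3M it was again called for 0 of 10, beside 0.853% of tested genes. Sod1 alone had an unadjusted p under 0.05 in edgeR, beside 9.27% of all genes, with 1 gene in DESeq2. The Sod1 genotype difference went from -0.13 at P29 to 0.18 at 3M, an interaction of 0.32 (SE 0.10, adjusted p = 0.103).

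More of the 10 genes were called for age than for genotype. From P11 to P29 in controls, 6 of the 10 genes rose and none fell, beside 16.5% of tested genes called higher, 15.6% called lower and 32% in all. The 6 were the regulator Nfe2l2, the target enzymes Nqo1 and Gclm, both dismutases and catalase. The median log2 change of the 10 genes was 0.63, against -0.02 over all tested genes. In mutants 8 of the 10 rose, all but Hmox1 and Gpx1, beside 16.4% of tested genes called higher, 15.2% lower and 31.7% in all, with a median of 0.62 against -0.01. Libraries of the ages did not overlap for 5 of the 10 genes in controls, beside 27.6% of tested genes, and for 6 in mutants, beside 31.3%.

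Cat rose most. It went from 93.9, 93.8, 101 and 96.7 CPM in P11 controls to 241, 221, 209 and 258 CPM in P29 controls, a 2.41-fold rise (log2 1.27, SE 0.11, adjusted p = 2.56e-18). In mutants it went from 71.7, 73.3, 70.6 and 99.1 CPM to 213, 184, 213 and 191 CPM, a 2.54-fold rise (log2 1.34, SE 0.11, adjusted p = 1.89e-19). In neither genotype did the ages overlap. Sod1 rose from 422, 520, 532 and 532 CPM to 837, 789, 911 and 830 CPM in controls (log2 0.75, SE 0.07, adjusted p = 1.98e-16). It rose from 553, 507, 545 and 569 CPM to 776, 725, 792 and 779 CPM in mutants (log2 0.50, SE 0.07, adjusted p = 2.90e-09). Again all P29 libraries were above all P11 libraries. The mitochondrial dismutase Sod2 rose from 51.1, 63.2, 74.0 and 69.1 CPM to 112, 103, 109 and 103 CPM in controls (log2 0.74, SE 0.15, adjusted p = 2.81e-05) and by 0.70 in mutants (SE 0.15, adjusted p = 6.75e-05). Its P11 mutants were scattered, from 41.0 to 90.6 CPM, but stayed below the P29 mutants, at 102 to 111 CPM.

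Among the enzymes known as NRF2 targets, Nqo1 rose from 73.9, 87.8, 68.3 and 101 CPM to 170, 171, 129 and 134 CPM in controls (log2 0.87, SE 0.13, adjusted p = 6.97e-08). In mutants it rose from 62.9, 63.2, 80.8 and 60.1 CPM to 168, 117, 184 and 165 CPM (log2 1.25, SE 0.14, adjusted p = 2.93e-13). Ages did not overlap in either genotype. Gclm rose from 59.2 ± 12.9 to 97.5 ± 20.5 CPM in controls (log2 0.71, SE 0.17, adjusted p = 0.000377) and from 56.3 ± 12.6 to 88.5 ± 11.8 CPM in mutants (log2 0.65, SE 0.17, adjusted p = 0.00126; SD, n = 4). Its partner Gclc was called in mutants (log2 0.59, SE 0.21, adjusted p = 0.0226) and not in controls (0.42, SE 0.21, adjusted p = 0.115). The mutant Gclc call was lost without mutant P11 replicate 4 (adjusted p = 0.141) or mutant P29 replicate 1 (0.0924) or 3 (0.0714), and the control change passed without P11 control replicate 1 (0.69, adjusted p = 0.0127). Txnrd1 likewise rose in mutants, from 38.6 ± 5.13 to 70.3 ± 12.3 CPM (log2 0.86, SE 0.18, adjusted p = 8.22e-05). In controls its change of 0.34 (SE 0.18, adjusted p = 0.157) did not pass, nor did the interaction given above.

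Nfe2l2 rose from 53.1, 87.8, 47.5 and 66.9 CPM to 87.8, 85.7, 88.1 and 112 CPM in controls (log2 0.55, SE 0.16, adjusted p = 0.00462). P11 control replicate 2 reached the P29 level. In mutants the rise from 52.2 ± 13.6 to 69.7 ± 8.09 CPM was close to the threshold (log2 0.41, SE 0.16, adjusted p = 0.0447). It was lost with median-of-ratios scaling (0.36, adjusted p = 0.0886), in DESeq2 (0.36, adjusted p = 0.0946) and in 5 of 8 fits that left out a library, those without mutant P11 replicates 1, 2 or 3 or P29 replicates 1 or 2 (adjusted p 0.0857 to 0.168). All 6 control calls, Nfe2l2 included, remained in each of the 8 fits that left out a control library. Gpx1 changed by -0.13 in controls (SE 0.11, adjusted p = 0.359) and by 0.25 in mutants (SE 0.10, adjusted p = 0.0587), and the mutant change passed without P11 replicate 1 or 4 or P29 replicate 4 (adjusted p 0.0180 to 0.0369). Hmox1 was low throughout, with 4 to 26 counts per library, and changed by 0.18 in controls (interval -1.13 to 1.48) and -0.76 in mutants (-2.06 to 0.55).

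From P29 to 3M fewer of the 10 genes moved. This comparison uses the same P29 libraries as the one before, so the 2 are not independent. In controls Sod1 and Cat rose and Txnrd1 fell, beside 12% of tested genes called (3.49% higher and 8.50% lower). Sod1 went from 842 ± 50.7 to 986 ± 48.8 CPM (log2 0.23, SE 0.07, adjusted p = 0.0155) and Cat from 232 ± 21.8 to 286 ± 17.8 CPM (log2 0.30, SE 0.10, adjusted p = 0.0361). Thioredoxin reductase transcripts went from 70.3, 74.5, 52.4 and 68.9 CPM to 50.5, 44.3, 40.5 and 47.7 CPM (log2 -0.54, SE 0.18, adjusted p = 0.0363). Each of the 3 genes was separated without overlap, as were 15% of tested genes. These calls were close to the threshold. None of the 3 remained without P29 replicate 2 or 3M replicate 4, 1 remained without P29 replicate 1 or 3M replicate 2, and 2 remained without any other single library of the 8.

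In mutants Sod1 and Cat rose again from P29 to 3M, and Nqo1 and Txnrd1 fell, beside 12.7% of tested genes called (5.44% higher and 7.27% lower). Sod1 went from 768 ± 29.5 to 1120 ± 43.0 CPM (log2 0.54, SE 0.07, adjusted p = 3.62e-10) and Cat from 200 ± 15.2 to 276 ± 24.2 CPM (log2 0.46, SE 0.10, adjusted p = 0.000411), both without overlap. With Nfe2l2 they were the 3 genes without overlap, beside 18.1% of tested genes. Nqo1 went from 168, 117, 184 and 165 CPM to 130, 112, 124 and 121 CPM (log2 -0.38, SE 0.13, adjusted p = 0.0381). Its libraries overlapped through P29 replicate 2, and the call was lost in 7 of 8 fits that left out a library, all but the one without P29 replicate 2 (adjusted p 0.0512 to 0.201). Txnrd1 went from 70.3 ± 12.3 to 49.0 ± 8.40 CPM (log2 -0.52, SE 0.18, adjusted p = 0.0438), lost in 6 of 8 such fits, all but those without P29 replicate 4 or 3M replicate 2 (adjusted p 0.0724 to 0.196). Nfe2l2 was higher in every 3M mutant, at 98.5, 95.4, 90.3 and 86.0 CPM, than in any P29 mutant, but its change of 0.41 did not pass (SE 0.16, adjusted p = 0.0776). Levels of Gclc, Gclm and Sod2 differed between P29 and 3M by no more than 0.18 on the log2 scale in either genotype, with adjusted p of 0.496 or more.

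**Figure D4:**
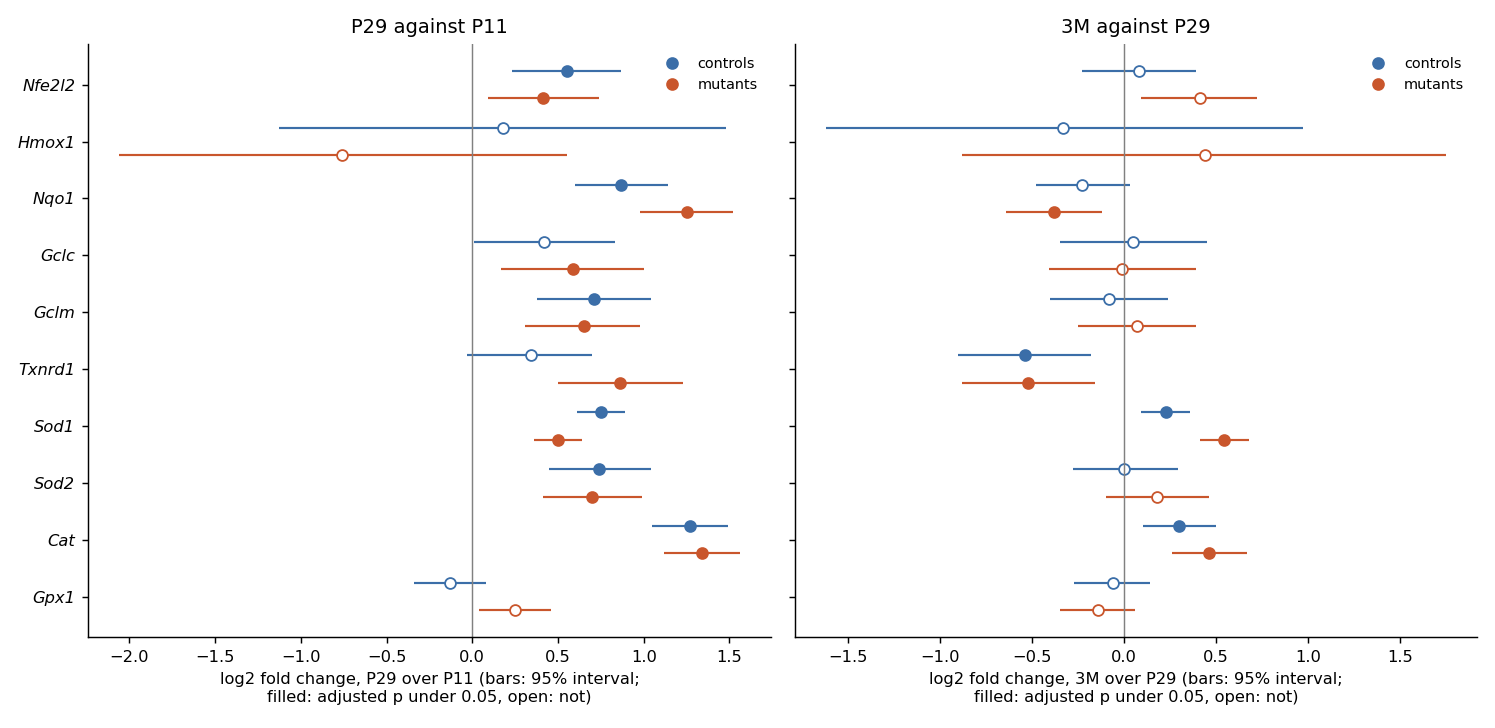
Log2 fold change of P29 over P11 (left) and of 3M over P29 (right) for each gene, controls in blue and mutants in orange, with 95% intervals. Filled symbols have an adjusted p under 0.05: 6 and 8 genes on the left, 3 and 4 on the right.

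The make-up of the libraries moved with age as well. From P11 to P29 in controls the RPE markers went from 22371 to 23405 CPM up to 50679 to 51643 CPM, with 9 of 12 tested markers called higher, 3 lower and a median log2 change of 1.15. All 6 tested erythrocyte genes fell, and the sum over that list went from 26974 to 29062 CPM down to 2570 to 3202 CPM, with Epb42 at 0 at both ages. All 12 endothelial markers fell in the same comparison. In mutants at that step 9 of 12 RPE markers were called higher and 2 lower, all 6 tested erythrocyte genes fell, and 13 of 14 lens markers rose. The mitochondrial share went from 7.3% to 8.79% down to 4.76% to 5.45% in controls, and from 10.2% to 11.1% down to 5.39% to 6.58% in mutants. From P29 to 3M all 14 rod markers fell in both genotypes, 8 of 12 RPE markers were called higher and 3 lower in each, and 13 of 14 lens markers fell in mutants. For P29 against P11, 16.5% of all tested genes were called higher and 15.6% lower in controls, and 16.4% and 15.2% in mutants. For 3M against P29 these shares were 3.49% and 8.50% in controls, and 5.44% and 7.27% in mutants. The part of the shifts in cell markers in the antioxidant values was not tested.

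By group mean, the order of levels showed few steps between neighbours. Cat was in the order 3M controls, 3M mutants, P29 controls, P29 mutants, P11 controls and P11 mutants, and the single neighbouring pair whose libraries did not overlap was P29 mutants and P11 controls. Sod1 had 3 such steps: 3M mutants over 3M controls, these over P29 controls, and P29 mutants over P11 mutants. Nfe2l2 had a step between 3M and P29 mutants, Nqo1 between 3M mutants and P11 controls, and Sod2 between P29 and P11 mutants. In Hmox1, Gclc, Gclm, Txnrd1 and Gpx1 every neighbouring pair overlapped. The coefficient of variation within groups was 3.84% to 10.7% for Sod1 and 19.5% to 80.3% for Hmox1.

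Over the 24 libraries, the genes with the levels most like those of Nfe2l2 among 10147 named genes were Hist1h4h, a histone gene (Pearson r of log2 CPM 0.89), and Hadha, which encodes a mitochondrial fatty acid oxidation enzyme (0.88). After subtraction of group means, r was 0.70 and 0.67, so part of the likeness was the shared course over groups. Among the 10 genes, Sod1 and Cat were most alike (r = 0.93). Nfe2l2 correlated with Cat at 0.83, Sod1 at 0.76, Sod2 at 0.71, Nqo1 at 0.60, Gclm at 0.55 and Gclc at 0.51. With Txnrd1 it was at 0.25, with Gpx1 at 0.06 and with Hmox1 at -0.03. Hmox1 lay between -0.29 and 0.12 with every other gene. Looked up after the values were seen, the nearest genes to Cat were Rdh5 and Rlbp1, both of the visual cycle of the RPE (r = 0.99 each), with r of 0.40 and 0.33 after subtraction of group means. Points of these correlations share depth, age and cell make-up.

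The wider antioxidant system was described with 98 further genes in 8 lists, of which 91 were tested. For genotype at P11, 3 of the 91 rose and 9 fell in mutants, beside 3.26% and 3.67% of all tested genes, and the median over the 91 was -0.10. Gsto1, a glutathione S-transferase of the omega class, was at 7.35, 13.8, 0.00 and 3.19 CPM in P11 controls and at 18.2, 31.4, 20.5 and 17.9 CPM in P11 mutants. Its mutants lay above all controls (log2 1.83, SE 0.43, adjusted p = 0.00242). At P29 Gsto1 was at 12.1, 5.18, 8.48 and 6.93 CPM in controls and 20.3, 39.4, 26.9 and 30.6 CPM in mutants, again without overlap (log2 1.82, SE 0.41, adjusted p = 0.00167). At 3M the libraries overlapped (0.37, adjusted p = 0.867), and the difference between ages was not tested for this gene.

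Slc7a11, the cystine importer subunit that feeds glutathione synthesis, had 34, 24, 28 and 17 counts in P11 controls and 5, 0, 2 and 6 counts in P11 mutants (log2 -3.14, SE 0.96, adjusted p = 0.0271). The call was lost in 7 of 8 fits leaving out a library, all but the one without control replicate 4 (adjusted p 0.0512 to 0.123), though the groups did not overlap. At the later ages the counts lay the other way, without a call: 0, 0, 1 and 0 in P29 controls against 10, 5, 0 and 0 in P29 mutants (adjusted p = 0.221), and 0 in each 3M control against 1, 2, 1 and 0 in 3M mutants (adjusted p = 0.534). Its transporter partner Slc3a2 was 17.2% lower in the fit (log2 -0.27, SE 0.09, adjusted p = 0.0429), lost without control replicates 1 or 3 or mutant replicates 3 or 4, without the low-count filter (0.0751) and in the fit to the 8 P11 libraries (0.0827). Mafg, a small MAF partner of NRF2, was at 65.2, 49.9, 51.9 and 63.2 CPM in P11 controls and 83.0, 86.4, 94.2 and 82.8 CPM in P11 mutants (log2 0.58, SE 0.16, adjusted p = 0.0130; 0.0514 without control replicate 2). The 3' end of Mafg overlaps a transcript of Sirt7, so its count is uncertain.

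Also lower in P11 mutants were Gstt2, another glutathione S-transferase (log2 -0.70, SE 0.17, adjusted p = 0.00299), Ftl1, the ferritin light chain (-0.33, SE 0.08, adjusted p = 0.00287), and Taldo1, an enzyme of the pentose phosphate pathway (-0.30, SE 0.08, adjusted p = 0.00814). Like Gsto1, these calls held in all 8 fits that left out a P11 library. Ftl1 has copies at least 97% identical at its 3' end, which makes its count uncertain. Txnl1 (a thioredoxin-like protein), Slc48a1 (a heme transporter), Ephx1 (microsomal epoxide hydrolase) and Mt1 (a metallothionein) fell by 0.73, 0.26, 0.52 and 0.17, and Me1 (malic enzyme, a source of NADPH) rose by 0.38. Each of these 5 calls was lost in 3 to 5 of the 8 fits and in the fit to only the 8 P11 libraries (adjusted p 0.0643 to 0.174), and that of Mt1 also in DESeq2 (0.0520). The 3' end of Ephx1 overlaps Gm36961 on the same strand, so its count is uncertain. The 3' ends of Slc48a1 and Mt2 overlap Hdac7 and Gm45774 on the opposite strand, and the sources used here do not say whether counting used strand.

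At P29 the genotype calls among the 91 were the Gsto1 rise, and falls of Slc48a1 (log2 -0.29, adjusted p = 0.00838) and Sesn3, a sestrin (-0.32, adjusted p = 0.0226), beside 1.63% of tested genes called higher and 1.21% lower. The Slc48a1 call was lost in 3 of 8 fits leaving out a library and the Sesn3 call in 4, the latter also without the low-count filter (adjusted p = 0.0598). At 3M the single call was a fall of Taldo1 (-0.26, adjusted p = 0.0450), lost in 7 of 8 such fits and without the low-count filter (adjusted p = 0.0680), beside 2.13% of tested genes called higher and 0.480% lower. Keap1, which holds NRF2 in check, averaged 82.4 and 79.4 CPM in P11 controls and mutants, 103 and 84.0 CPM at P29 and 85.1 and 87.6 CPM at 3M, and was called in no genotype comparison.

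From P11 to P29 in controls, 36 of the 91 rose and 4 fell, with a median of 0.38, beside 16.5% and 15.6% of tested genes. The list of detoxification and stress genes had 7 of 12 called higher and 0 lower, glutathione S-transferases 7 of 16 and 0, heme and iron genes 4 of 6 and 0, peroxidases and dismutases 4 of 12 and 0, and NADPH supply 3 of 7 and 0. The regulators had 4 of 11 called higher and 1 lower, glutathione supply 5 of 16 and 1, and thioredoxin and sulfur repair 2 of 11 and 2, with a median of 0.08. The metallothionein genes Mt1 and Mt2, whose products bind zinc and copper, went from 1625 to 1956 and 595 to 703 CPM in P11 controls to 4748 to 5692 and 2794 to 2890 CPM in P29 controls. These were log2 rises of 1.56 (SE 0.05, adjusted p = 7.77e-44) and 2.15 (SE 0.06, adjusted p = 1.78e-46). Prdx6, a peroxiredoxin, rose 2.00-fold (adjusted p = 5.45e-15). The 4 that fell were Slc7a11, Rbx1 (a subunit of the KEAP1 ubiquitin ligase), Txn1 (thioredoxin, log2 -0.81, adjusted p = 5.32e-05) and Txnip (the thioredoxin-binding protein, -1.26, adjusted p = 1.51e-06). For Slc7a11 the step was not called in mutants (adjusted p = 0.932).

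In mutants the same step gave 39 rises and 4 falls among the 91, with a median of 0.44, beside 16.4% of tested genes called higher and 15.2% lower. From P29 to 3M the controls had 8 rises and 5 falls, with a median of 0.07, beside 3.49% of tested genes called higher and 8.50% lower. The mutants had 20 rises and 5 falls, with a median of 0.14, beside 5.44% and 7.27%. Mt1, Mt2, Prdx6, Fth1 (the ferritin heavy chain), Gsta4, Gstt2 and Gstk1 were called higher at this step in both genotypes, and Ggt1, Glo1 and Prdx4 lower in both. Each step shares its P29 libraries with the step before.

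**Figure D5:**
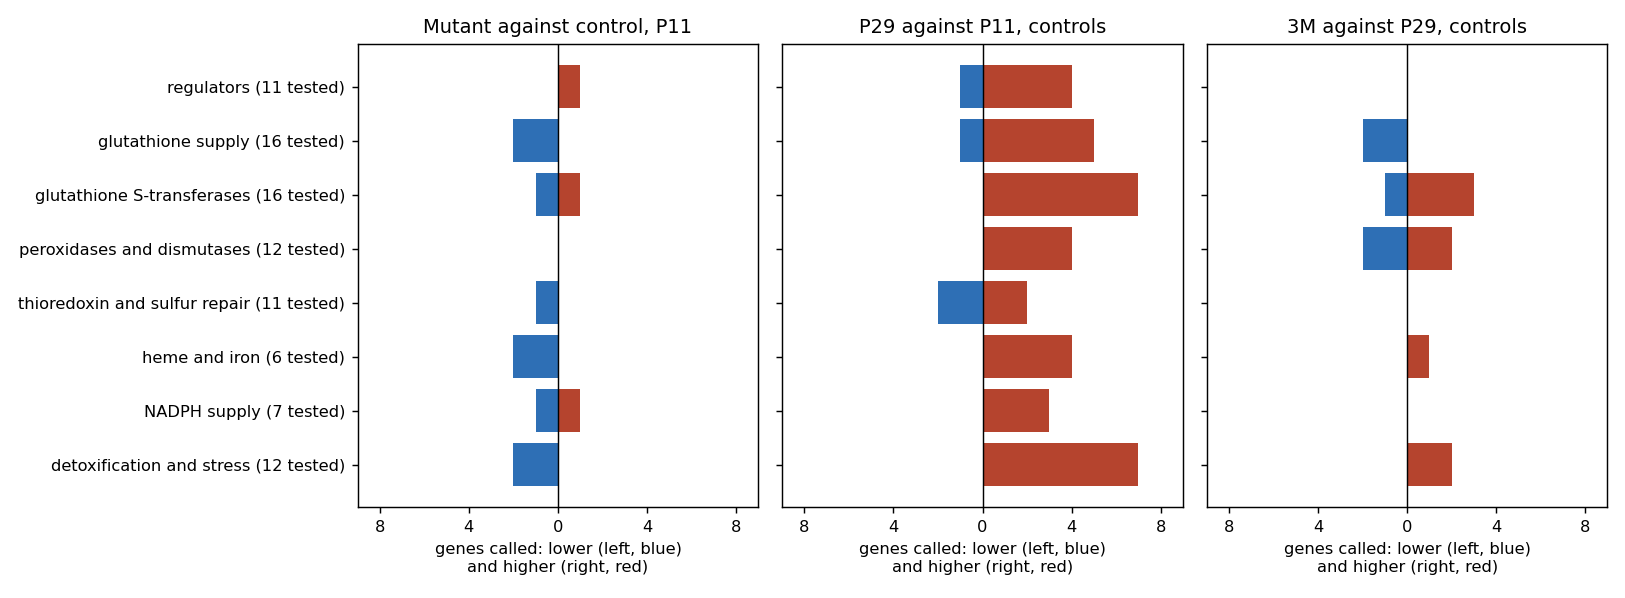
Number of genes called lower (left, blue) and higher (right, red) in each of the 8 wider antioxidant lists, for mutants against controls at P11, P29 against P11 in controls, and 3M against P29 in controls. The calls for P29 against P11 lie mostly to the right, 36 against 4.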

How the data were processed

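Each of the 24 deposited files held whole-number counts for 31053 gene identifiers and 5 special entries that name no gene, which stayed out of totals and tests. STAR and mm10 are the tool and build the authors name, per the submitters' processing notes, with no version or role given. Counting tool, annotation, strand setting and any molecular identifiers: not given in the sources used here. Between 18.6% and 27.5% of a library's entries were outside features, and 31% to 37.2% aligned to several places. GENCODE's GRCm38 annotation gave symbols and positions for 30934 identifiers.

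Groups followed genotype and age in the labels. The test was edgeR's quasi-likelihood F test (edgeR 4.0.16 under R 4.3.3) on 1 mean per group over all 24 libraries, after filterByExpr and TMM scaling (factors 0.937 to 1.05), with robust estimation. Calls are at an adjusted p (Benjamini-Hochberg, 12303 genes) under 0.05. Standard errors are the log2 fold change over the root of F, and intervals are at 95%. A prior count of 1 entered the log2 CPM values of correlations. The fit was also run on counts simulated from the spread estimated here, with set folds in some genes. That run held no shift in cell make-up, and its outcome is not given here. Similar 3' ends were searched with blastn 2.17.0. Depth limits precision, and floors cover counting error only.

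The alternatives tried were DESeq2 1.42.0, median-of-ratios scaling, omitting the low-count filter (19634 genes), fits to the 8 libraries of an age, the replicate number as a block, and leaving out each library. Counts of all 36 replicate pairs differed beyond sampling noise. The named genes are all 10 members, and from the wider lists those called for genotype, up to 3 per list. Genes named for age changes in the wider lists, and Keap1, were chosen after their values were seen. Likeness was given for Nfe2l2 (the 2 nearest genes, mean level 5 CPM or more) and for any of the 10 called for genotype. The members and lists were chosen with earlier results of these data known.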

Additional observations from a re-analysis of the deposited data

Results flagged for a closer look

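In 5 of 60 sets (10 genes in 6 groups of 4 libraries), 1 library stood far from the other 3 by Dixon's criterion, which chance gives in about 1 of 20 sets. Sod1 was at 422 CPM in P11 control replicate 1, where the others were at 520 to 532 CPM. Nqo1 was at 80.8 CPM in P11 mutant replicate 3 (others 60.1 to 63.2) and at 144 CPM in 3M control replicate 1 (others 123 to 126). Nfe2l2 was at 112 CPM in P29 control replicate 4, against 85.7 to 88.1 CPM in the others. Cat was at 99.1 CPM in P11 mutant replicate 4, against 70.6 to 73.3 CPM, and this library decides whether Cat is called for genotype at P11.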

How the results depend on the processing

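The number of the 10 genes called stayed within 1.5 times its value in each of the 9 comparisons under median-of-ratios size factors, DESeq2, no low-count filter and the replicate block, and for genotype in fits to the 8 libraries of an age. Leaving out 1 library gave 0 to 1 called genes for genotype at P11 (0 with all), 0 to 2 for P29 to 3M in controls (3 with all) and 2 to 3 in mutants (4 with all). Replicate numbers did not pair the samples (correlation of deviations -0.02 to 0.05), and with the replicate block no call of the 10 genes was gained or lost, with 6 called for P29 against P11 in controls. Without the low-count filter the Txnrd1 falls from P29 to 3M missed the threshold in controls (-0.52, adjusted p = 0.0683) and in mutants (-0.52, adjusted p = 0.0667). The Gclm genotype difference at 3M, 0.01, was -0.01 with median-of-ratios, -0.01 in DESeq2 and -0.02 in the fit to 8 libraries. Sign changes on leaving out 1 library were all in uncalled differences. For genotype at P11 the ranges were -0.39 to 0.03 (Gclc), -0.22 to 0.05 (Gclm) and -0.17 to 0.20 (Sod2). At P29 they were -0.86 to 0.07 (Hmox1), -0.01 to 0.19 (Nqo1), -0.17 to 0.04 (Gclc), -0.02 to 0.19 (Txnrd1) and -0.04 to 0.01 (Sod2), and at 3M -0.36 to 0.46 (Hmox1) and -0.15 to 0.09 (Gclm). For age in controls they were -0.48 to 0.65 (Hmox1, P11 to P29), and from P29 to 3M -0.58 to 0.34 (Hmox1), -0.17 to 0.08 (Gclm), -0.05 to 0.06 (Sod2) and -0.17 to 0.02 (Gpx1). In mutants from P29 to 3M they were -0.10 to 0.72 (Hmox1), -0.12 to 0.09 (Gclc) and -0.01 to 0.14 (Gclm). For the interaction of P29 with P11 they were -0.32 to 0.06 (Nfe2l2), -0.10 to 0.32 (Gclc), -0.19 to 0.08 (Gclm) and -0.21 to 0.16 (Sod2), and for 3M with P29 -0.17 to 0.03 (Gclc), -0.01 to 0.24 (Gclm), -0.09 to 0.12 (Txnrd1) and -0.16 to 0.03 (Gpx1). The causes of these changes were not tested. Depth limits Hmox1 most, at 4 to 26 counts per library.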
